A study of Rattus norvegicus with 32 samples.

Results

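The uterus of rats given bisphenol A (BPA) at 25000 µg per kg body weight per day was compared with that of rats given 2500 µg per kg per day, a 10-fold step between the highest doses of the series. The members were the 8 libraries of these groups, 4 BPA 25000 and 4 BPA 2500, of 32 libraries in all, taken by their labelled dose. All groups were Sprague-Dawley rats of the NCTR colony, and the labels name no allele. Dams were gavaged from gestation day 6 until labour, and their pups were gavaged directly from postnatal day 1 until collection at PND365 (PND, postnatal day). The vehicle was 0.3% carboxymethylcellulose, and the vehicle controls were not used in the contrast. RNA was extracted from uterine samples and sequenced on libraries made by standard Illumina protocols. Expression is given as CPM, read counts relative to the scaled size of the library.

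BPA is a monomer of polycarbonate plastics that binds the estrogen receptors weakly. In the uterus, estrogen acts through the receptor encoded by Esr1 to drive growth of the epithelium, partly through signals from the stroma such as insulin-like growth factor, and it induces the progesterone receptor. Progesterone opposes that growth and prepares the stroma for implantation. Retinoic acid, made from vitamin A by aldehyde dehydrogenases, is a further signal known to keep uterine epithelium simple and columnar.

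Total counts averaged 19093263 ± 2928510 in BPA 25000 and 18976666 ± 1812249 in BPA 2500 (SD, n = 4 each), with a range of 16130546 to 23078311 and of 16879384 to 20717318 (exact permutation test, two-sided, p = 0.943; the smallest p that 70 regroupings allow is 0.0286). At these depths 3 counts were worth 0.130 to 0.186 CPM in a library. BPA 25000 library 3 stood apart: its median Spearman correlation with the other libraries was 0.943, against 0.963 to 0.969 for the other 7. It also had fewer genes with a count, 13288 against 13844 to 14138. Its macrophage markers averaged 4.76 on the log2 CPM scale, against 5.83 to 6.57 in the other 7 libraries, and its lymphocyte markers 0.025, against 0.61 to 1.54. The uterine label went with high levels of muscle and receptor genes, with Acta2, the smooth muscle actin, at 5545 ± 389 CPM in BPA 25000 and 5612 ± 1712 CPM in BPA 2500 and Esr1 at 151 ± 17.3 CPM in BPA 25000 and 152 ± 24.8 CPM in BPA 2500. Since the labels tie no library to an animal of its own, a p-value here speaks of the spread among libraries, which may in part be technical. In bulk tissue, fewer cells of a type and less RNA per cell cannot be told apart.

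No gene passed the test between the doses. Of 13312 genes tested in edgeR's quasi-likelihood model, 0 were higher (0%) and 0 lower (0%) in BPA 25000 at an adjusted p under 0.05, and the smallest adjusted p was 0.9998. At an unadjusted p under 0.05 there were 236 genes (1.77%), 118 of them higher (0.886%) and 118 lower (0.886%). The same count was 403 without BPA 25000 library 3, 471 without BPA 25000 library 1 and 481 without BPA 2500 library 4, with 0 genes called each time. DESeq2 called 0 genes and had 301 at an unadjusted p under 0.05. Limma voom with sample weights called 4 and had 1239 at that p. Of the 4, Aldh1a1, Plau and Adcyap1r1 were higher and Unc5a was lower.

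The size of difference that the model leaves room for varied by gene. Its standard errors and intervals use a spread estimated over all 32 libraries, so the other groups also set their width. The median log2 fold change over all genes was -0.01 and the median standard error 0.25. For 9371 genes (70.4%) the 95% interval of the difference lay within 2-fold in both directions, and for 5198 genes (39.0%) it lay within 1.5-fold. The median of the interval's half-width was 0.52 on the log2 scale. Within a group, the highest and the lowest library differed by more than 2-fold in 4783 genes (35.9%) of BPA 25000 and in 3903 genes (29.3%) of BPA 2500. All 4 libraries of one group lay beyond all 4 of the other in 200 genes (1.5%), 97 with BPA 25000 higher (0.729%) and 103 with BPA 25000 lower (0.774%).

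**Figure D1:**
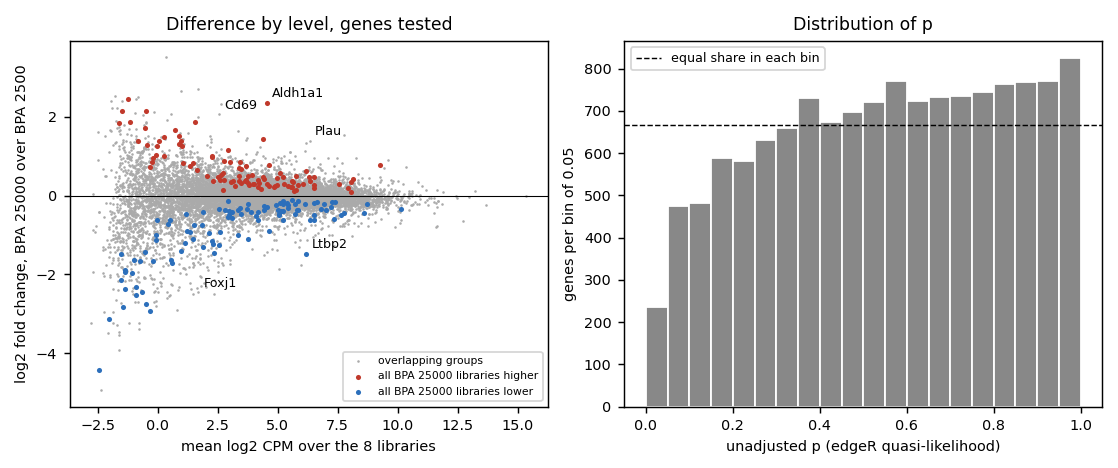
Left, the log2 fold change of BPA 25000 over BPA 2500 against the mean log2 CPM of the 8 libraries, one point a gene, with genes whose groups do not overlap in red (all 4 BPA 25000 libraries higher) or blue (all lower). Right, the number of genes in each bin of unadjusted p; the lowest bin, with 236 genes, is under the equal share drawn as a dashed line.

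Aldh1a1, a retinaldehyde dehydrogenase that makes retinoic acid, had the smallest p of all genes. It was at 29.4, 90.4, 44.7 and 75.02 CPM in the BPA 25000 libraries, against 5.89, 14.5, 4.97 and 21.1 CPM in the BPA 2500 libraries. Every BPA 25000 library was above every BPA 2500 library, although each group spread about its own mean. The means were 59.9 ± 27.8 CPM in BPA 25000 and 11.6 ± 7.63 CPM in BPA 2500 (SD, n = 4 each), a log2 fold change 2.36, SE 0.55, with a 95% interval of 1.23 to 3.49. The edgeR p of 0.000201 did not survive adjustment over all genes (adjusted p = 0.9998). The adjusted p was 0.0583 with DESeq2 and 0.0314 with limma voom. Leaving out any 1 of the 8 libraries left the log2 fold change between 2.09 and 2.82, with an adjusted p of 0.9992 or more each time in edgeR.

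The promoter of Aldh1a1 is printed because its gene stood first in the comparison, and that of Adcyap1r1 because its gene stood second among the higher genes. Both are from RefSeq on build GRCr8, 250 bases before the start of the gene and 50 after it, on the strand of the gene. Capitals mark matches to the estrogen response element half-site GGTCA (reverse TGACC) and to the CCAAT box (reverse ATTGG), searched on both strands with the full element GGTCANNNTGACC and the dioxin response core GCGTG (reverse CACGC).
Aldh1a1, chr1:227537370-227537669, + strand: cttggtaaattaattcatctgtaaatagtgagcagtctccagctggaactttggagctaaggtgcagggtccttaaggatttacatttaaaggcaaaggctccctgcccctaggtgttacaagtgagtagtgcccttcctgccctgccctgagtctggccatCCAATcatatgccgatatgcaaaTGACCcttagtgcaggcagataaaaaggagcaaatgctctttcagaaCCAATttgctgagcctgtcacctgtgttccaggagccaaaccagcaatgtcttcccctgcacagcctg
Adcyap1r1, chr4:85923921-85924220, + strand: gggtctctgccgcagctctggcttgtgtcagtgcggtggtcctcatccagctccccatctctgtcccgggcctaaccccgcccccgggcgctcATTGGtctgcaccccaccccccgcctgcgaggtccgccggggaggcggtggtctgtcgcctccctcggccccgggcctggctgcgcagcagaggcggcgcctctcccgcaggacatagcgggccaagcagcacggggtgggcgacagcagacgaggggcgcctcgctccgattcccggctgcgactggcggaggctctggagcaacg

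The Aldh1a1 window held 1 half-site, as TGACC at base 186, and 2 CCAAT boxes, at bases 163 and 233, counted from the first base of the window. The Adcyap1r1 window held 1 CCAAT box, as ATTGG at base 94. Of 33469 rat promoter windows of the same length, 40.5% held a half-site, 37.5% a CCAAT box, 29.7% the dioxin response core and 0.0269% the full estrogen response element. A half-site was therefore common among all promoters, and the match is a description of the sequence only.

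Genes of retinoid metabolism lay on both sides of 0. Of 21 tested, 8 were above 0 and 13 below, with a median log2 fold change of -0.05 (-0.15 without BPA 25000 library 3 and 0.05 without BPA 2500 library 3), and 0 passed. Rdh16, a retinol dehydrogenase, was at 4.25, 2.93, 8.12 and 2.77 CPM in the BPA 25000 libraries, against 1.52, 3.32, 1.98 and 2.35 CPM in the BPA 2500 libraries. Cyp26b1, which degrades retinoic acid, was at 6.02, 17.3, 6.25 and 14.7 CPM in the BPA 25000 libraries, against 6.06, 5.02, 9.44 and 7.44 CPM in the BPA 2500 libraries. Both were high in BPA 25000 libraries of different number, library 3 for Rdh16 and libraries 2 and 4 for Cyp26b1, and overlapped the BPA 2500 libraries (log2 fold change 0.97, SE 0.42; log2 fold change 0.66, SE 0.34). Aldh1a3, a related dehydrogenase, lay on the other side, at 1.28 ± 0.374 CPM in BPA 25000 and 3.79 ± 3.49 CPM in BPA 2500 (SD, n = 4 each; log2 fold change -1.57, SE 0.87). Tgm2, a transglutaminase known as a target of retinoic acid, was at 991, 898, 1065 and 1091 CPM in the BPA 25000 libraries, against 1237, 1212, 1386 and 1308 CPM in the BPA 2500 libraries. Its groups did not overlap, with BPA 25000 lower (log2 fold change -0.35, SE 0.29, 95% interval -0.94 to 0.25); it was singled out after its values were seen.

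**Figure D2:**
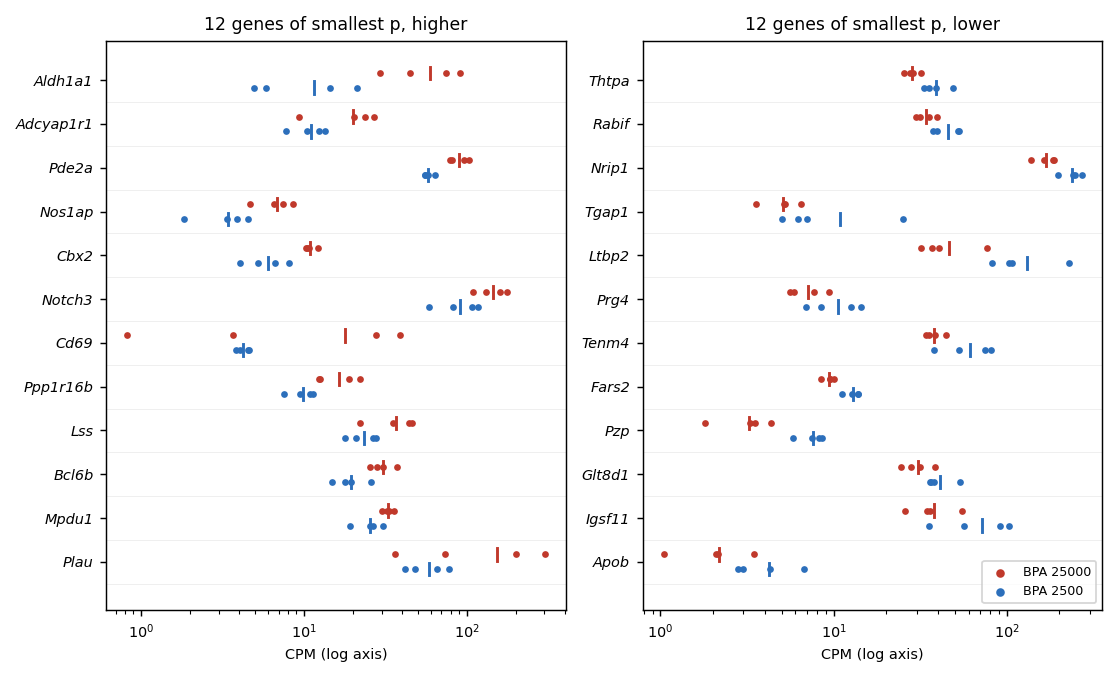
CPM on a log axis in each library (points) with the group mean (bars) for the 12 genes of smallest p that were higher in BPA 25000 (left) and the 12 that were lower (right), BPA 25000 above BPA 2500. None of the 24 passed the test. In 5 genes of each panel the groups do not overlap, beside 200 of all 13312 genes tested (1.5%). Choosing genes by smallest p in the same comparison favours genes without overlap.

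The other 11 higher genes of smallest p included genes of receptors, vessels and cyclic nucleotide signalling. Adcyap1r1, the PACAP receptor, was at 20.2, 27.1, 9.38 and 23.7 CPM in the BPA 25000 libraries, against 7.80, 12.4, 10.5 and 13.5 CPM in the BPA 2500 libraries. BPA 25000 library 3 lay inside the BPA 2500 range and the other 3 above it (log2 fold change 0.86, SE 0.28). Pde2a, a phosphodiesterase that is switched on by cyclic GMP, was at 78.5, 96.8, 104 and 81.4 CPM in the BPA 25000 libraries, against 57.5, 55.4, 55.1 and 63.7 CPM in the BPA 2500 libraries. The groups did not overlap (log2 fold change 0.64, SE 0.20). Notch3, a Notch receptor of vascular mural cells, was at 109.7, 176, 132 and 159 CPM in the BPA 25000 libraries, against 58.4, 118, 82.3 and 107 CPM in the BPA 2500 libraries. The lowest BPA 25000 library lay under the highest BPA 2500 library (log2 fold change 0.66, SE 0.22). Nos1ap, an adaptor of neuronal nitric oxide synthase, was at 7.41, 4.68, 8.61 and 6.56 CPM in the BPA 25000 libraries, against 3.87, 4.55, 1.85 and 3.36 CPM in the BPA 2500 libraries (log2 fold change 0.996, SE 0.32). Cbx2, a chromodomain protein of the Polycomb complex, was at 10.5, 10.4, 10.8 and 12.3 CPM in the BPA 25000 libraries, against 4.04, 5.26, 6.70 and 8.06 CPM in the BPA 2500 libraries (log2 fold change 0.87, SE 0.28). Neither of these 2 genes overlapped between the groups, Nos1ap by a narrow margin. Ppp1r16b, a regulatory subunit of protein phosphatase 1 in endothelium, ranged from 12.4 to 22.2 CPM in BPA 25000 and 7.58 to 11.4 CPM in BPA 2500, without overlap (log2 fold change 0.74, SE 0.26). Bcl6b, a transcriptional repressor, ranged from 25.5 to 37.5 CPM in BPA 25000 and 14.9 to 26.01 CPM in BPA 2500 (log2 fold change 0.64, SE 0.23). 

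Plau and Cd69 had large differences that rested on part of the libraries. Plau, the urokinase-type plasminogen activator, was at 73.1, 303, 36.3 and 200.03 CPM in the BPA 25000 libraries, against 41.5, 77.5, 66.01 and 48.4 CPM in the BPA 2500 libraries. Libraries 2 and 4 of BPA 25000 were above all others and library 3 was the lowest of the 8 (log2 fold change 1.39, SE 0.50); without BPA 25000 library 2 the log2 fold change was 0.82. Cd69, an early activation marker of lymphocytes, was at 3.68, 38.999, 0.823 and 27.8 CPM in the BPA 25000 libraries, against 4.60, 4.55, 3.83 and 4.03 CPM in the BPA 2500 libraries. The BPA 2500 libraries were close together, while BPA 25000 libraries 2 and 4 were above all of them and libraries 1 and 3 below (log2 fold change 2.06, SE 0.71). Lss, lanosterol synthase of the cholesterol pathway, ranged from 22.002 to 46.2 CPM in BPA 25000 and 17.8 to 27.7 CPM in BPA 2500 (log2 fold change 0.67, SE 0.23). Mpdu1, which serves protein glycosylation, ranged from 30.4 to 35.96 CPM in BPA 25000 and 19.3 to 30.5 CPM in BPA 2500 (log2 fold change 0.37, SE 0.13). Mpdu1 overlaps Sox15 in the annotation, and since the use of strand in counting is not given, their reads cannot be told apart.

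Among the 12 lower genes of smallest p was Nrip1, a corepressor of nuclear receptors that binds the estrogen receptor. Nrip1 was at 184, 138, 162 and 186 CPM in the BPA 25000 libraries, against 268, 245, 238 and 197 CPM in the BPA 2500 libraries. The groups did not overlap, and the nearest libraries were BPA 25000 library 4 and BPA 2500 library 4 (log2 fold change -0.50, SE 0.18). Ltbp2, an extracellular matrix protein of microfibrils, was at 76.9, 36.7, 40.3 and 31.7 CPM in the BPA 25000 libraries, against 227, 107, 102 and 81.7 CPM in the BPA 2500 libraries. No BPA 25000 library reached the lowest BPA 2500 library, and library 1 was the highest of each group (log2 fold change -1.48, SE 0.57, the largest of the 12 in size). Pzp, a protease inhibitor of the alpha-2-macroglobulin family, was at 3.29, 4.34, 1.81 and 3.52 CPM in the BPA 25000 libraries, against 5.84, 8.57, 8.23 and 7.49 CPM in the BPA 2500 libraries. Its groups did not overlap (log2 fold change -1.21, SE 0.48).

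Fars2, the mitochondrial phenylalanine tRNA synthetase, ranged from 8.45 to 10.1 CPM in BPA 25000 and 11.2 to 13.9 CPM in BPA 2500, without overlap (log2 fold change -0.45, SE 0.18). Thtpa, the thiamine triphosphatase, ranged from 25.5 to 31.97 CPM in BPA 25000 and 33.1 to 48.7 CPM in BPA 2500, also without overlap (log2 fold change -0.46, SE 0.15), and it overlaps Zfhx2 and Ap1g2 in the annotation. The other 7 overlapped between the groups. Tenm4, a teneurin of cell adhesion, had a log2 fold change -0.69, SE 0.27, and Igsf11, an immunoglobulin-family adhesion molecule, a log2 fold change -0.91, SE 0.37. Apob, the apolipoprotein of low-density lipoprotein, had a log2 fold change -0.93, SE 0.38 at a low level, 1.04 to 3.47 CPM in BPA 25000 and 2.78 to 6.76 CPM in BPA 2500. Prg4, the lubricin gene, which overlaps Tpr, had a log2 fold change -0.57, SE 0.22. Rabif, a partner of Rab GTPases, had a log2 fold change -0.42, SE 0.15, and the glycosyltransferase gene Glt8d1, which overlaps Nek4 and Spcs1, a log2 fold change -0.43, SE 0.17. Tgap1 had a log2 fold change -1.08, SE 0.40, with 25.03 CPM in BPA 2500 library 1 and all other libraries at 3.57 to 6.96 CPM.

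Genes of the estrogen response did not pass the test in either direction. Of 24 tested, 7 were above 0 and 17 below, with a median log2 fold change of -0.19, beside -0.01 over all genes. Without BPA 25000 library 3 the median was -0.35, and 3 of the 24 had an unadjusted p under 0.05, all lower, against 0 with it. Esr1, the main estrogen receptor of the uterus, was at 145, 171, 131 and 158 CPM in the BPA 25000 libraries, against 138, 177, 169 and 125 CPM in the BPA 2500 libraries. The libraries of the groups intermingled (log2 fold change -0.01, SE 0.22, 95% interval -0.45 to 0.43), so a difference over 1.5-fold lay outside the interval. Esr2, the second receptor, was at low counts, 0 to 0.907 CPM in BPA 25000 and 0.191 to 0.758 CPM in BPA 2500. Among 18 steroid receptors and their partners, 4 were above 0 and 14 below, with a median of -0.15 (-0.07 without BPA 2500 library 2), and Nrip1 was the only one with an unadjusted p under 0.05.

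Several estrogen-regulated genes spread widely within each group. Pgr, the progesterone receptor, was at 203, 72.1, 209 and 78.7 CPM in the BPA 25000 libraries, against 293, 189, 314 and 98.01 CPM in the BPA 2500 libraries. In each group libraries 1 and 3 were high and libraries 2 and 4 low, and the groups overlapped (log2 fold change -0.67, SE 0.35, 95% interval -1.39 to 0.05). Igf1, the stromal growth factor, was at 198, 54.4, 149.7 and 76.1 CPM in the BPA 25000 libraries, against 276, 152, 317 and 76.5 CPM in the BPA 2500 libraries. Its order was the same, with libraries 1 and 3 of each group above libraries 2 and 4 (log2 fold change -0.78, SE 0.41, 95% interval -1.62 to 0.06). S100g, a calcium-binding protein known for its induction by estrogen in rat uterus, was at 428, 77.3, 214 and 105 CPM in the BPA 25000 libraries, against 439, 167, 616 and 126 CPM in the BPA 2500 libraries. Again libraries 1 and 3 were the higher ones of each group (log2 fold change -0.71, SE 0.74), and the gene overlaps Ctps2. Hsd11b2, which inactivates corticosterone, was at 385, 90.2, 383 and 80.8 CPM in the BPA 25000 libraries, against 580.1, 354, 834 and 151 CPM in the BPA 2500 libraries, in the same order (log2 fold change -1.03, SE 0.65). Lcn2, a secreted iron-binding protein of the epithelium, was at 9.92, 125, 22.3 and 131 CPM in the BPA 25000 libraries, against 31.3, 256, 20.5 and 323 CPM in the BPA 2500 libraries. Here the order was turned round, with libraries 2 and 4 of each group above libraries 1 and 3 (log2 fold change -1.13, SE 1.09, 95% interval -3.35 to 1.09). Library numbers do not pair libraries across the groups.

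**Figure D3:**
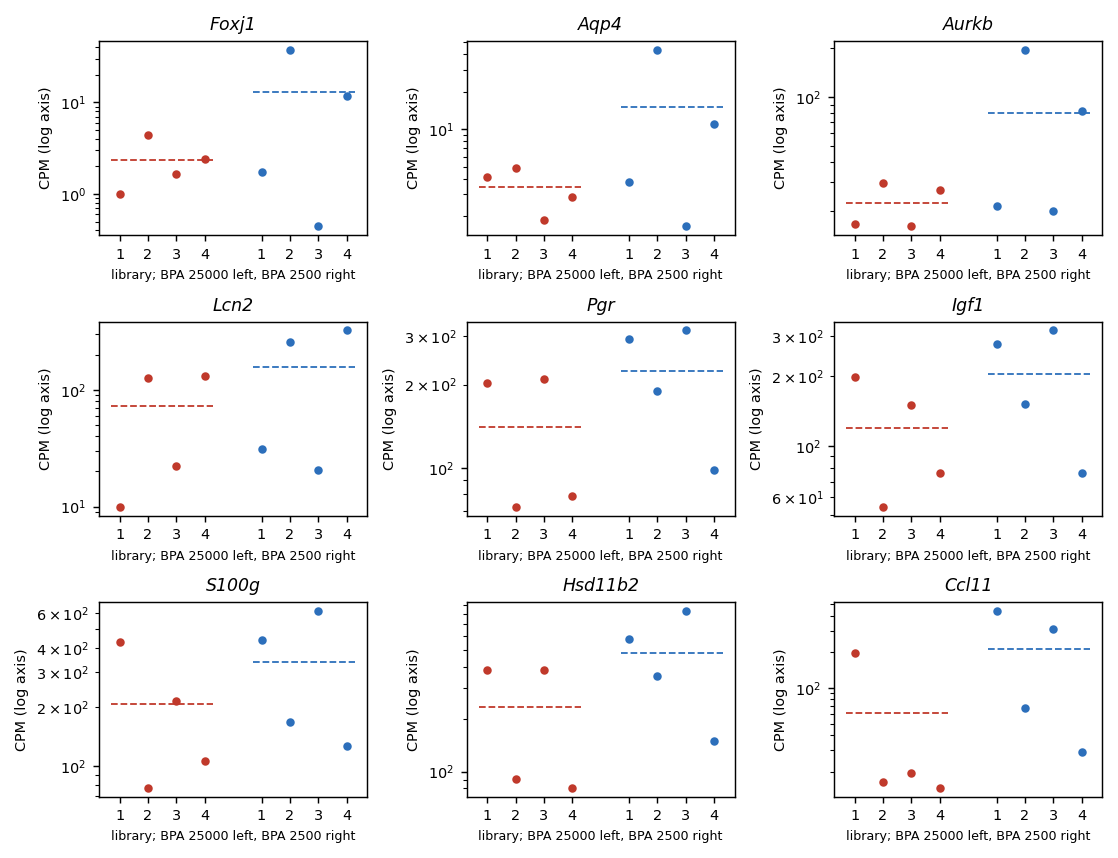
CPM on a log axis in the 4 BPA 25000 libraries (red, left) and the 4 BPA 2500 libraries (blue, right) of 9 genes, with the group mean as a dashed line. In Pgr, Igf1, S100g and Hsd11b2 libraries 1 and 3 of each group lie above libraries 2 and 4, in Lcn2 below them; in Foxj1, Aqp4 and Aurkb the BPA 2500 mean is set by libraries 2 and 4.

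Other estrogen-linked genes of the panel gave wide intervals. C3, complement component 3, which estrogen induces in rat uterine epithelium, was at 1225, 3826, 2912 and 4555 CPM in the BPA 25000 libraries, against 2897, 4159.6, 2624 and 5542 CPM in the BPA 2500 libraries (log2 fold change -0.28, SE 0.67). Ltf, lactoferrin, was at low counts, with 44 in all in the BPA 25000 libraries and 69 in the BPA 2500 libraries. Its levels were 0.267 to 1.15 CPM in BPA 25000 and 0.142 to 2.41 CPM in BPA 2500. Igfbp3 had a log2 fold change -0.02, SE 0.35 and the orphan receptor gene Esrrg a log2 fold change -0.50, SE 0.63. Padi2, a peptidylarginine deiminase, was at 176 ± 109 CPM in BPA 25000 and 302 ± 135 CPM in BPA 2500 (SD, n = 4 each; log2 fold change -0.78, SE 0.44). Greb1 was not analysed here.

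No progesterone or growth factor gene passed the test. Of 19 tested genes of the progesterone and implantation response, 12 were above 0 and 7 below, with a median of 0.08, and of -0.06 without BPA 25000 library 2. Hand2, the stromal transcription factor through which progesterone restrains epithelial growth, was at 17.6, 16.2, 8.78 and 17.2 CPM in the BPA 25000 libraries, against 6.34, 9.43, 12.9 and 9.26 CPM in the BPA 2500 libraries. Library 3 was the lowest of BPA 25000 and the highest of BPA 2500, and the other 3 BPA 25000 libraries were above all BPA 2500 libraries (log2 fold change 0.66, SE 0.27, 95% interval 0.10 to 1.21; 0.84 without BPA 25000 library 3). Klf9, a transcription factor that works with the progesterone receptor, was at 212, 229, 112 and 229 CPM in the BPA 25000 libraries, against 119.5, 139, 105 and 161 CPM in the BPA 2500 libraries, with library 3 again the low one of BPA 25000 (log2 fold change 0.57, SE 0.26; 0.77 without it). Prlr, the prolactin receptor, was at 5.28 ± 4.85 CPM in BPA 25000 and 12.2 ± 7.68 CPM in BPA 2500 (SD, n = 4 each; log2 fold change -1.20, SE 0.64). In the IGF system 11 of 16 genes were above 0, with a median of 0.16. Igfbp5, an IGF-binding protein, was at 831, 889, 855 and 727 CPM in the BPA 25000 libraries, against 655, 418, 327 and 539 CPM in the BPA 2500 libraries. Its groups did not overlap, and its interval still held 0 (log2 fold change 0.77, SE 0.57, 95% interval -0.39 to 1.93). In the EGF family 6 of 13 were above 0, with a median of -0.16, and of 0.02 without BPA 25000 library 1 or library 3. Errfi1, a feedback inhibitor of the EGF receptor, had a log2 fold change 0.48, SE 0.20. Btc, betacellulin, an EGF receptor ligand, was at 0.494 to 0.953 CPM in BPA 25000 and 1.90 to 2.86 CPM in BPA 2500, without overlap (log2 fold change -1.64, SE 0.97).

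Of 37 Wnt pathway genes, 23 were above 0 and 14 below, with a median of 0.06 that ran from 0.03 to 0.16 with 1 library left out. Wnt5a, a stromal ligand that shapes the uterine glands, was at 213, 117, 137 and 138 CPM in the BPA 25000 libraries, against 283, 231, 346 and 176 CPM in the BPA 2500 libraries. BPA 25000 library 1 was the only one of its group inside the BPA 2500 range (log2 fold change -0.78, SE 0.35, 95% interval -1.49 to -0.06). The inhibitors Dkk1 and Nkd2 were higher on average, with a log2 fold change 1.13, SE 0.49 and a log2 fold change 0.96, SE 0.39, and overlapped. Wnt7a, an epithelial ligand needed for uterine patterning in mice, was at 20.8, 3.04, 61.8 and 10.03 CPM in the BPA 25000 libraries, against 13.6, 5.40, 5.74 and 5.76 CPM in the BPA 2500 libraries. BPA 25000 libraries 1 and 3 were the highest and library 2 the lowest of all 8 (log2 fold change 1.65, SE 0.84). Of 25 Hedgehog and BMP genes, 11 were above 0 and 14 below (median -0.01), and of 11 uterine identity genes 5 were above and 6 below (median -0.01); both medians changed side with 1 library left out.

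The list median furthest from 0 was that of the genes of motile cilia, which move fluid and are built under the transcription factor Foxj1. Of 22 tested, 21 were below 0 and 7 had an unadjusted p under 0.05, all lower in BPA 25000, with a median of -1.86. None passed the adjusted test. Foxj1 was at 0.996, 4.45, 1.65 and 2.40 CPM in the BPA 25000 libraries, against 1.74, 37.7, 0.446 and 11.7 CPM in the BPA 2500 libraries. BPA 2500 libraries 2 and 4 were high, BPA 2500 library 3 was the lowest of the 8, and the groups overlapped (log2 fold change -2.45, SE 1.14, 95% interval -4.79 to -0.11). Ccdc40, an assembly factor of the ciliary axoneme, was at 0.736, 4.40, 0.384 and 3.68 CPM in the BPA 25000 libraries, against 2.13, 33.7, 1.34 and 8.93 CPM in the BPA 2500 libraries, with the same libraries high (log2 fold change -2.34, SE 1.04). Dnaaf1, which assembles the dynein motors, had a log2 fold change -2.51, SE 1.11, and Mns1 and Cfap52, both axonemal proteins, had -2.22 (SE 0.99) and -1.73 (SE 0.73). The list's mean log2 CPM was 0.93, 2.01, 0.64 and 1.62 in the BPA 25000 libraries, against 1.34, 4.27, 0.74 and 2.98 in the BPA 2500 libraries. Without BPA 2500 library 2 the median was -0.76 and 0 of the 22 had an unadjusted p under 0.05, and without BPA 25000 library 1 that count was also 0. The count was 11 without BPA 2500 library 1 (median -2.20) and 12 without BPA 2500 library 3 (median -2.22), all lower. Aqp4, a water channel, followed the same libraries, at 4.12, 4.90, 1.87 and 2.83 CPM in the BPA 25000 libraries, against 3.76, 43.7, 1.66 and 10.99 CPM in the BPA 2500 libraries (log2 fold change -2.13, SE 1.01).

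The other epithelial lists had medians nearer 0. Of 25 genes of simple and glandular epithelium, 5 were above 0 and 20 below, with a median of -0.17. The median was 0.03 without BPA 25000 library 1 and -0.36 without BPA 25000 library 3. Krt8, a keratin of simple epithelium, was at 141, 226, 428 and 282 CPM in the BPA 25000 libraries, against 363, 317, 260.5 and 338 CPM in the BPA 2500 libraries, where BPA 25000 library 1 was the lowest (log2 fold change -0.25, SE 0.46). Wfdc2, a secreted protein of glands, had a log2 fold change 0.16, SE 0.41, and overlaps Eppin and other genes of its family. Of 18 genes of stratified epithelium, 11 were below 0, with a median of -0.39. The median was -0.85 without BPA 25000 library 3, with 15 of the 18 below 0, and -0.04 without BPA 2500 library 2, with 9 below. It was -0.16 without BPA 25000 library 1 and -0.24 without BPA 25000 library 4. Tp63, the master transcription factor of basal cells, was at 3.21, 0.507, 3.35 and 2.24 CPM in the BPA 25000 libraries, against 18.1, 1.66, 7.91 and 2.40 CPM in the BPA 2500 libraries (log2 fold change -1.68, SE 0.76), and Grhl3, a factor of the skin barrier, at 6.28, 2.03, 1.10 and 2.51 CPM in the BPA 25000 libraries, against 7.13, 3.88, 13.3 and 3.26 CPM in the BPA 2500 libraries (log2 fold change -1.20, SE 0.56). In both, BPA 2500 libraries 1 and 3 were the high ones. The basal keratin genes Krt5 and Krt14 were at low counts in both groups. Krt5 had 64 counts in all in BPA 25000 and 52 in BPA 2500, and Krt14 had 10 and 33. Krt5 was at 0.373 to 1.81 CPM in BPA 25000 and 0.224 to 1.14 CPM in BPA 2500, and Krt14 at 0 to 0.507 CPM in BPA 25000 and 0.168 to 0.893 CPM in BPA 2500. Atp12a, a proton-potassium pump, was at 4.59, 7.33, 3.90 and 8.86 CPM in the BPA 25000 libraries, against 0.393, 1.09, 1.53 and 3.65 CPM in the BPA 2500 libraries. The groups did not overlap (log2 fold change 1.88, SE 0.70, 95% interval 0.44 to 3.31). Aqp1, a water channel of vessels, did not overlap either, at 292 to 366 CPM in BPA 25000 and 193 to 278 CPM in BPA 2500 (log2 fold change 0.41, SE 0.22). Ion transport as a list was centred near 0, with 11 of 23 above and a median of -0.06 (0.09 without BPA 2500 library 2).

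Smooth muscle genes were below 0 in 16 of 21, with a median of -0.13. Without BPA 25000 library 3 they were below 0 in 20 of 21, with a median of -0.25, and without BPA 25000 library 4 the median was -0.05. Acta2 was at 5628, 5816, 4973 and 5763 CPM in the BPA 25000 libraries, against 3771, 7552, 6467 and 4659 CPM in the BPA 2500 libraries (log2 fold change -0.02, SE 0.31). Stromal and matrix genes were above 0 in 14 of 31, with a median of -0.02, which was 0.13 without BPA 25000 library 3 and -0.16 without BPA 25000 library 1. Mmp11, stromelysin 3, a matrix enzyme of stroma, was at 888, 379, 99.3 and 435 CPM in the BPA 25000 libraries, against 141, 88.6, 75.7 and 318 CPM in the BPA 2500 libraries. BPA 25000 libraries 1, 2 and 4 were above every BPA 2500 library and library 3 was not (log2 fold change 1.53, SE 0.61, 95% interval 0.28 to 2.78), and the gene overlaps Chchd10. Fbln1, fibulin 1 of the matrix, had a log2 fold change -0.76, SE 0.36. Endothelial and pericyte genes were above 0 in 15 of 20, with a median of 0.19, and 3 of them, Notch3, Erg and Rgs5, had an unadjusted p under 0.05. Erg, an endothelial transcription factor, was at 11.6, 16.9, 26.1 and 12.8 CPM in the BPA 25000 libraries, against 11.95, 7.72, 10.3 and 11.6 CPM in the BPA 2500 libraries, with BPA 25000 library 3 the highest (log2 fold change 0.69, SE 0.26). Rgs5, a pericyte regulator of G-protein signalling, was at 63.1, 68.5, 31.1 and 58.6 CPM in the BPA 25000 libraries, against 30.5, 38.3, 39.6 and 36.6 CPM in the BPA 2500 libraries, with BPA 25000 library 3 the second lowest of the 8 (log2 fold change 0.61, SE 0.27). The endothelial median was 0.01 without BPA 25000 library 3, in which this list averaged 6.02, against 5.54 to 5.89 in the other 7 libraries.

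Of the immune cell genes 0 passed, and 4 of the 5 immune lists, those other than lymphocytes, had a median that changed side of 0 with 1 library left out. Of 19 macrophage genes, 8 were above 0 and 11 below, with a median of -0.06. Without BPA 25000 library 3, in which this list was lowest, 18 of the 19 were above 0, with a median of 0.22. Under limma voom with sample weights 17 were above 0, with a median of 0.18, and without BPA 2500 library 3 there were 15, with a median of 0.15. The median was -0.24 without BPA 25000 library 1. Gpnmb, a glycoprotein of macrophages, was at 275, 352, 134 and 278 CPM in the BPA 25000 libraries, against 96.1, 129, 92.9 and 214 CPM in the BPA 2500 libraries (log2 fold change 0.97, SE 0.40, 95% interval 0.15 to 1.78), and Cd14, the endotoxin co-receptor, was at 50.4, 46.8, 52.1 and 48.6 CPM in the BPA 25000 libraries, against 55.4, 64.1, 73.6 and 60.1 CPM in the BPA 2500 libraries. Gpnmb overlapped between the groups, and Cd14 did not, with BPA 25000 lower (log2 fold change -0.36, SE 0.21). Of 22 lymphocyte genes 18 were above 0, with a median of 0.25. Without BPA 25000 library 3 the median was 0.48, and 3 of 24 then tested had an unadjusted p under 0.05, all higher. The median was 0.05 without BPA 25000 library 4, with 13 of 24 above 0, and without BPA 2500 library 1 it was 0.12. Prf1, perforin of cytotoxic cells, was at 8.14, 11.3, 2.08 and 10.1 CPM in the BPA 25000 libraries, against 4.49, 4.83, 2.997 and 6.53 CPM in the BPA 2500 libraries (log2 fold change 0.74, SE 0.43), with BPA 25000 library 3 the lowest. Ccl11, eotaxin, the chemokine of eosinophils, was at 196, 16.3, 19.6 and 14.7 CPM in the BPA 25000 libraries, against 435, 68.1, 308 and 29.4 CPM in the BPA 2500 libraries (log2 fold change -1.77, SE 0.93). BPA 25000 library 1 and BPA 2500 libraries 1 and 3 were high. Of 13 genes of neutrophils and inflammatory cytokines 9 were below 0 (median -0.16, and 0.16 without BPA 25000 library 3). Of 15 genes of eosinophils and mast cells 11 were below 0 (median -0.13, and 0.08 without BPA 2500 library 1). Of 29 interferon response genes 19 were above 0 (median 0.05). Without BPA 25000 library 4 there were 8 (median -0.14), and without BPA 25000 library 2 or BPA 2500 library 1 there were 12.

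All 9 tested red blood cell genes were below 0, with a median of -0.82, and 0 passed. The 9 were also below 0 with any 1 of the 8 libraries left out, and the median was -0.50 without BPA 25000 library 3 and likewise without BPA 2500 library 2. Without BPA 25000 library 1 the median was -1.08. There 7 of the 9 had an unadjusted p under 0.05, all lower, against 0 with that library. Hba-a1, an alpha globin gene, was at 93.2, 86.2, 45.3 and 80.8 CPM in the BPA 25000 libraries, against 102, 164, 101 and 104 CPM in the BPA 2500 libraries (log2 fold change -0.62, SE 0.32), and Hbb, a beta globin gene, at 145, 107, 27.2 and 106 CPM in the BPA 25000 libraries, against 157, 274, 123 and 124 CPM in the BPA 2500 libraries (log2 fold change -0.82, SE 0.41). BPA 25000 library 3 was the lowest and BPA 2500 library 2 the highest of the 8 in both. Hba-a1 did not overlap between the groups, and Hbb did. The alpha globin genes are near copies of each other, so how their reads were shared out is uncertain.

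Most proliferation genes were above 0, and 0 passed. Of 33 cell cycle genes, 28 were above 0, with a median of 0.44. Mki67, the marker of cycling cells, was at 58.9, 44.7, 99.9 and 71.9 CPM in the BPA 25000 libraries, against 23.1, 32.03, 94.5 and 53.6 CPM in the BPA 2500 libraries. Library 3 was the highest of each group, and the groups overlapped (log2 fold change 0.44, SE 0.49). Cenpf, a kinetochore protein, was at 27.5, 23.4, 58.8 and 48.5 CPM in the BPA 25000 libraries, against 10.9, 19.5, 29.02 and 28.1 CPM in the BPA 2500 libraries (log2 fold change 0.85, SE 0.50), and Plk1, a mitotic kinase, at 4.07, 4.73, 14.8 and 9.07 CPM in the BPA 25000 libraries, against 2.36, 3.03, 6.25 and 5.86 CPM in the BPA 2500 libraries (log2 fold change 0.90, SE 0.52). Both overlapped. Aurkb, another mitotic kinase, lay on the other side, at 16.5, 29.6, 16.1 and 26.7 CPM in the BPA 25000 libraries, against 21.5, 197, 20.03 and 82.6 CPM in the BPA 2500 libraries (log2 fold change -1.85, SE 1.05), with BPA 2500 libraries 2 and 4 high as in the cilia genes. With BPA 25000 library 3 left out, 24 of the 33 were above 0 and the median was 0.20, and 2 genes had an unadjusted p under 0.05, both lower. The median was 0.23 without BPA 2500 library 1 and 0.72 without BPA 2500 library 3.

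The medians of the lists depended on single libraries. In 22 of the 38 lists, leaving out 1 library put the median on the other side of 0, among them 6 of the 19 lists whose median was over 0.1 in size. Those 6 were simple and glandular epithelium, neutrophils and inflammatory cytokines, eosinophils and mast cells, adipocytes, the EGF family and skeletal muscle. The medians of motile cilia, red blood cells, the cell cycle and the estrogen response kept their side with each of the 8 libraries left out.

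**Figure D4:**
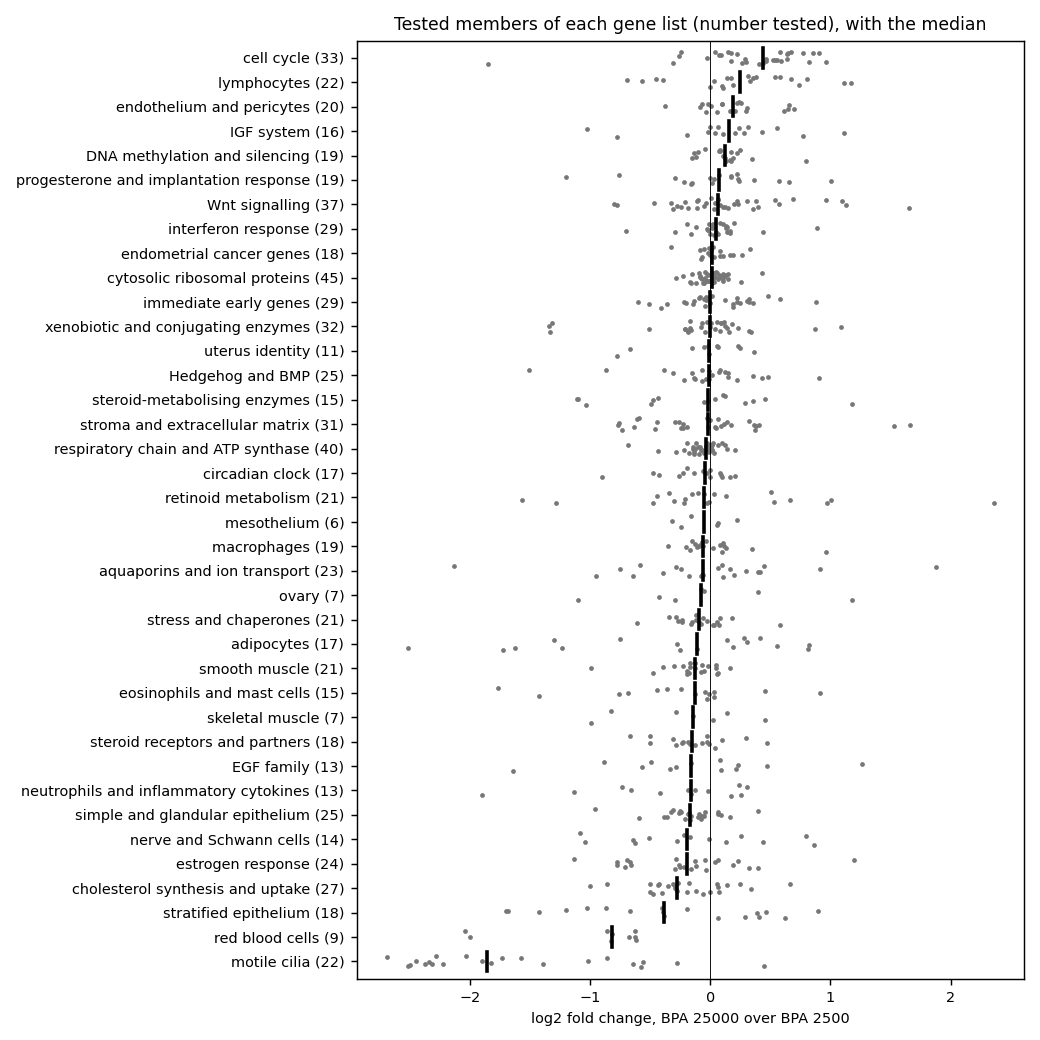
The log2 fold change of BPA 25000 over BPA 2500 of each tested gene (points) in 38 gene lists, with the list's median (bar) and the number tested in parentheses. The medians of 32 lists lie between -0.19 and 0.19; those of motile cilia (-1.86) and red blood cells (-0.82) lie furthest below 0 and that of the cell cycle (0.44, and 0.20 to 0.72 with 1 library left out) furthest above.

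No metabolic gene passed the test. Of 27 genes of cholesterol synthesis and uptake, 20 were below 0, with a median of -0.28. Msmo1, a sterol methyl oxidase, was at 45.2 ± 11.005 CPM in BPA 25000 and 62.7 ± 12.1 CPM in BPA 2500 (SD, n = 4 each; log2 fold change -0.47, SE 0.25). Of 32 enzymes of xenobiotic handling and conjugation, 16 were above 0 and 16 below. Ahrr, the repressor of the dioxin receptor, was at 3.81, 4.96, 2.30 and 7.26 CPM in the BPA 25000 libraries, against 2.75, 2.42, 0.446 and 2.98 CPM in the BPA 2500 libraries (log2 fold change 1.08, SE 0.42), with only BPA 25000 library 3 inside the BPA 2500 range. Gstp1, a glutathione transferase, ranged from 53.7 to 73.7 CPM in BPA 25000 and 46.4 to 56.6 CPM in BPA 2500 (log2 fold change 0.32, SE 0.15). Ugt1a6, a glucuronosyltransferase that can conjugate phenols such as BPA, was at 212, 439, 352 and 503 CPM in the BPA 25000 libraries, against 453, 384, 306 and 566 CPM in the BPA 2500 libraries (log2 fold change -0.18, SE 0.28), and its exons are shared with other genes of the Ugt1a locus. Cyp1a1, the classic dioxin receptor target, was at low counts, 0 to 0.427 CPM in BPA 25000 and 0 to 0.805 CPM in BPA 2500. Of 15 steroid-metabolising enzymes 7 were above 0 (median -0.02, and -0.15 without BPA 25000 library 3), and of 19 genes of DNA methylation and silencing 14 (median 0.12, and 0.05 without BPA 25000 library 3). Of 45 ribosomal protein genes 24 were above 0 (median 0.01). There were 43 above 0 without BPA 2500 library 1, 6 without BPA 2500 library 2 and 11 without BPA 25000 library 1. Of 40 genes of the respiratory chain and ATP synthase 13 were above 0 (median -0.03), with 24 above 0 without BPA 2500 library 1 and 3 without BPA 25000 library 1. Of 18 endometrial cancer genes 11 were above 0, with a median of 0.01, and 8 without BPA 2500 library 4. In all, 758 list genes were tested, and 31 (4.09%) had an unadjusted p under 0.05, 17 higher and 14 lower, beside 1.77% of all genes. The lists were written with earlier results of these data known, so this share is not independent of the data. Motile cilia gave 7 of the lower genes, a count that was 0 without BPA 2500 library 2 and 12 without BPA 2500 library 3.

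Set against the vehicle in the same model, BPA 25000 had 309 genes called (2.32%) and BPA 2500 had 0 (0%), with 2571 genes at an unadjusted p under 0.05 in BPA 25000 and 1353 in BPA 2500. Both comparisons use the same vehicle libraries. These had 11777809 to 14579842 counts, fewer than every BPA 25000 and BPA 2500 library, and a role of depth was not tested. The direct comparison, which tests the difference between these dose groups, called 0 genes. Aldh1a1 had a log2 fold change against the vehicle of 3.06 (SE 0.58, adjusted p = 0.0125) in BPA 25000 and of 0.70 (SE 0.55, adjusted p = 0.712) in BPA 2500. Adcyap1r1 had 2.27 (SE 0.29, adjusted p = 0.000194) in BPA 25000 and 1.41 (SE 0.29, adjusted p = 0.159) in BPA 2500. Notch3 had 1.20 (SE 0.22, adjusted p = 0.0107) in BPA 25000 and 0.54 (SE 0.22, adjusted p = 0.391) in BPA 2500. In each of these genes both doses lay on the same side of the vehicle. Nrip1, on the other side, had -1.0005 (SE 0.18, adjusted p = 0.00956) in BPA 25000 and -0.50 (SE 0.18, adjusted p = 0.345) in BPA 2500, all by edgeR. Of the 24 genes of smallest p, Nos1ap, Cbx2, Lss, Mpdu1, Thtpa, Rabif, Prg4, Fars2, Pzp and Glt8d1 had the doses on opposite sides of the vehicle. For Nos1ap the values were 0.75 (SE 0.32) in BPA 25000 and -0.25 (SE 0.32) in BPA 2500. In the rest of the 24 both doses lay on the same side. The 24 were chosen with the same BPA 25000 and BPA 2500 libraries that are set against the vehicle here.

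Over all 8 groups the levels of Aldh1a1 did not follow the BPA dose in order below 25000. The vehicle group was at 7.20 ± 3.27 CPM (SD, n = 4 in each group), ethinyl estradiol, the synthetic estrogen, at 30.01 ± 4.42 CPM with 0.05 and 31.5 ± 23.7 CPM with 0.5 µg per kg per day. BPA was at 13.9 ± 10.5 CPM with 2.5, 17.7 ± 12.6 with 25, 15.1 ± 5.93 with 250, 11.6 ± 7.63 with 2500 and 59.9 ± 27.8 with 25000 µg per kg per day. The groups from 2.5 to 2500 differed from their neighbours by less than their spread, and 25000 stood above them. Notch3 was highest in BPA 25000 and BPA 2.5, at 144 ± 29.3 and 127 ± 15.5 CPM, with BPA 2500 at 91.5 ± 26.6 and the vehicle at 62.8 ± 13.2 CPM. Nrip1 was lowest in BPA 25000, at 167 ± 22.5 CPM, with BPA 2500 at 237 ± 29.5 and the vehicle at 335 ± 23.2 CPM.

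**Figure D5:**
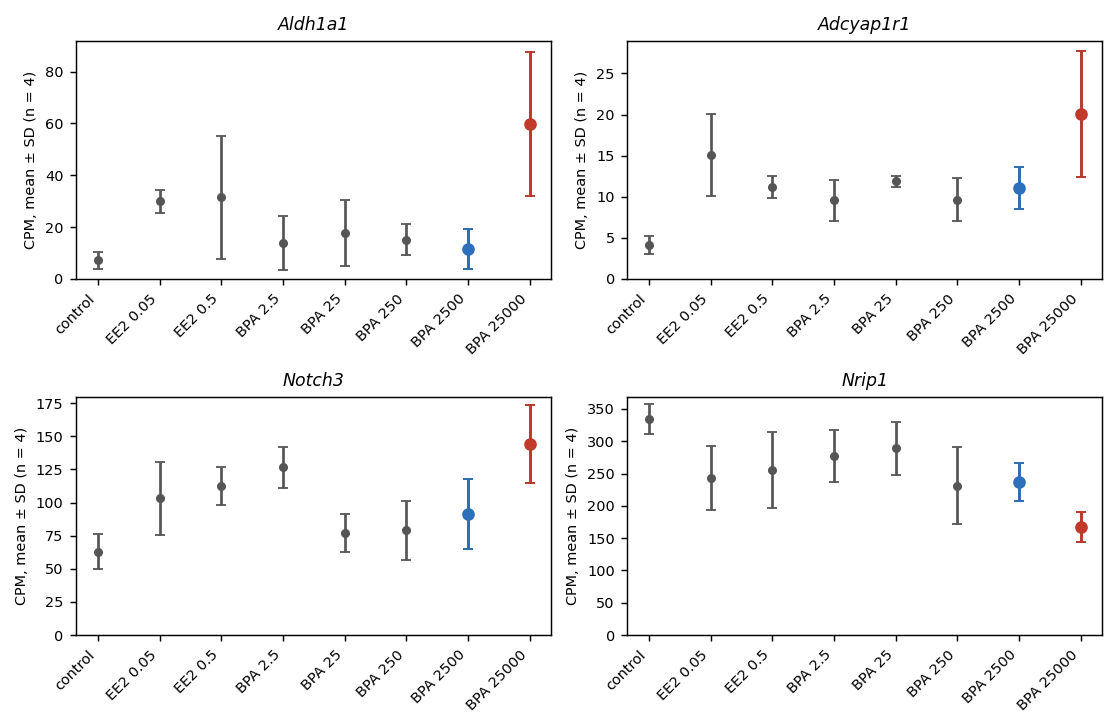
Mean CPM ± SD (n = 4 libraries) of 4 genes in the vehicle control, the EE2 (ethinyl estradiol) groups and the 5 BPA groups, doses in µg per kg per day, with BPA 2500 in blue and BPA 25000 in red. Aldh1a1, Adcyap1r1 and Notch3 have their highest mean in BPA 25000 and Nrip1 its lowest.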

How the data were processed

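RNA of rat uterus was sequenced in 32 libraries of 8 groups, 4 per group, and 8 libraries were compared here. The counts deposited by the authors are whole numbers for 17327 genes, in 1 table without normalisation. The submitters' processing notes name bcl2fastq, TopHat, edgeR and build rn5. The sources used here do not give their versions, the annotation, the use of strand or the treatment of reads with several matches, so genes that overlap or have near copies are uncertain. Symbols came from a RefSeq gene table of GRCr8, used for names and neighbours, and 17167 genes matched. The 160 that did not held 1.82% of the counts. In all 1766 genes had 0 counts in every library.

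Groups were taken from the labels, which give no animal, litter, batch, estrous stage or replicate number within a group. Libraries 1 to 4 follow the order of the labels. No 2 of the 8 libraries had identical columns, and in all 28 pairs the counts differed by more than sampling noise. Genes were kept by filterByExpr (minimum count 10, minimum total 15), which left 13312, and scaled by TMM in R 4.3.3. A quasi-likelihood model of edgeR 4.0.16 was fitted over the 32 libraries with 1 mean for each group, which share the estimate of spread. The contrast was BPA 25000 minus BPA 2500, with Benjamini-Hochberg adjustment over all genes and a threshold of 0.05. Standard errors are the log2 fold change over the square root of F, and intervals are at 95%. Mean log2 CPM uses a prior count of 2. The p-values in the text are from edgeR unless another tool is named. The floor of 3 counts covers counting error only. The steps were also run on simulated counts with known fold changes, drawn independently for each library. The simulation checks the steps only, and no result here rests on it.

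The rule named the 12 genes of smallest p in each direction with a mean log2 CPM of at least 1, since 0 passed, a panel of 21 genes of which 20 were tested, and up to 4 genes of smallest p from each of 38 lists (869 genes, 809 in the table, 758 tested). Part of the genes under the rule are not named in the text. Tgm2, Matn1, Grik2 and Unc5a fall outside it. The comparison, members and lists were chosen with earlier results of these data known. Lists are described by counts and medians, with no set test. Alternatives were DESeq2 size factors, no filter, a filter of 1 CPM in 16 libraries, DESeq2 1.42.0, limma 3.58.1 voom with sample weights, a robust spread, fewer groups in the fit, a threshold of 0.1, leaving out each library, and leaving out BPA 2.5 libraries 1 and 3, BPA 250 library 1 and BPA 25000 library 3, which stood apart in earlier results.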

Additional observations from a re-analysis of the deposited data

Results flagged for a closer look

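In 20 of 264 groups of 4 libraries (7.58%) 1 library lay far from the other 3. The cut-off of this rule would give about 1 in 20 groups for independent, normally distributed values. The groups here share genes and libraries, and some genes were chosen after their values were seen. The share of flagged groups therefore cannot be set against that rate. The groups were those of 90 genes in CPM, of 38 list means and of 4 library measures. Of the 20, 10 were in BPA 25000 library 3. There the most abundant transcript, the 45S ribosomal precursor Rn45s, had 2.90% of all counts, against 5.04% to 5.21% in the other BPA 25000 libraries, and the median Spearman correlation with other libraries was 0.943, against 0.964 to 0.967. The mean log2 CPM there was 4.76 for macrophages (others 6.35 to 6.57), 0.025 for lymphocytes (1.36 to 1.54) and 0.26 for stratified epithelium (-0.15 to -0.11). Klf9 was at 111.9 CPM there (others 212 to 229), Hand2 at 8.78 CPM (16.2 to 17.6), Hba-a2 at 41.0 CPM (73.8 to 78.0), Matn1, a cartilage matrix protein, at 79.2 CPM (0.823 to 1.41) and Unc5a at 0.494 CPM (0 to 0.0433).

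In BPA 25000 library 1, Ccl11 was at 196 CPM (others 14.7 to 19.6) and the ribosomal protein genes averaged 8.74 on the log2 CPM scale (8.21 to 8.27). Krt14 was at 0.507 CPM in BPA 25000 library 2 (others 0 to 0.0534). In BPA 2500 library 1, Wnt7a was at 13.6 CPM (5.40 to 5.76), Tgap1 at 25.03 CPM (5.04 to 6.96) and Glt8d1 at 53.2 CPM (36.1 to 37.6). BPA 2500 library 2 was far above the others in Hba-a1, at 164 CPM (101 to 104), and in Hba-a2, at 147 CPM (86.6 to 91.4), and library 3 in Hba-a3, at 54.8 CPM (18.8 to 24.8). The circadian clock genes averaged 5.28 on the log2 scale in BPA 2500 library 4 (5.48 to 5.51).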

How the results depend on the processing

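The count of called genes was 0 under every alternative but limma voom with sample weights, which called 4 genes, 2 of them list members, with smallest adjusted p 0.0314. The cause was not tested. The range of the smallest adjusted p over the other settings was 0.0583 (DESeq2) to 1, and at a threshold of 0.1 edgeR called 0, DESeq2 1 (Aldh1a1) and limma voom 7. Unadjusted p under 0.05 held for 316 genes with only these 2 groups in the fit, 153 with the 5 BPA groups, 624 without the 4 libraries that stood apart, 333 without a filter and 178 to 481 with 1 library left out. Under voom the log2 fold change of Unc5a, a gene with 10 counts in BPA 25000 and 47 in BPA 2500, was -4.26 against -2.17. Of 1516 gene and setting pairs, 32 had the opposite sign, all in 10 genes. Under voom these were Esr1 (0.13), Krt5 (-0.16), Acta2 (0.0797), Wfdc2 (-0.32), Igfbp3 (0.19), Cyp1a1 (0.24) and Matn1 (-1.36). Without the 4 libraries they were Esr1 (0.064), Esr2 (0.17), Krt5 (-0.37), Acta2 (0.0399), Wfdc2 (-0.43), Igfbp3 (0.15) and Matn1 (-1.57). With 1 library left out, Esr1 ran from -0.091 to 0.067, Esr2 from -1.15 to 0.19, Ltf from -1.27 to 0.38, Igfbp3 from -0.13 to 0.20, Acta2 from -0.17 to 0.15, Cyp1a1 from -1.04 to 0.61, Ugt1a6 from -0.35 to 0.014, Krt5 from -0.37 to 0.68, Wfdc2 from -0.44 to 0.46 and Matn1 from -1.57 to 3.11. No paired analysis was possible because the labels give no replicate numbers shared by the groups. Depth limits genes with low counts, such as Krt14, Ltf, Cyp1a1 and Unc5a.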

Other observations

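A few further genes had differences that rested on 1 or 2 libraries. Matn1 was at 0.823, 1.41, 79.2 and 0.960 CPM in the BPA 25000 libraries, against 2.97, 4.03, 1.59 and 4.03 CPM in the BPA 2500 libraries. BPA 25000 library 3 alone was above the BPA 2500 range, and the other 3 were below it (log2 fold change 2.69, SE 1.26). Grik2, a glutamate receptor subunit, was at 4.55, 48.2, 1.10 and 28.5 CPM in the BPA 25000 libraries, against 5.44, 3.22, 5.61 and 2.21 CPM in the BPA 2500 libraries. BPA 25000 libraries 2 and 4 were high, as in Plau and Cd69, and libraries 1 and 3 were inside or below the BPA 2500 range (log2 fold change 2.32, SE 1.02, 95% interval 0.23 to 4.42). Rsad2, an interferon-induced antiviral enzyme, was at 24.8, 106, 11.1 and 85.7 CPM in the BPA 25000 libraries, against 28.5, 43.7, 22.6 and 28.2 CPM in the BPA 2500 libraries, with the same BPA 25000 libraries high (log2 fold change 0.89, SE 0.49). Matn1 and Grik2 are in no list and were chosen after their values were seen, and Rsad2 is a member of the interferon response list.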
